A study of Mus musculus with 6 samples.

Results

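Aminoacyl-tRNA synthetases are the enzymes that join each amino acid to its tRNA, and their transcripts were followed in mouse primary oligodendrocyte precursor cells (mOPCs) after knockdown of Qk. The genes were taken by name: 36 of the 23038 genes listed, of which 20 encode the cytosolic enzymes and 16 encode enzymes of the mitochondrial matrix. All 36 passed the limit on low counts that left 12505 genes for testing. The mOPCs had been purified from mouse embryos by immunopanning, and 3 libraries came from cells given control siRNA (siNC) and 3 from cells given siRNA against Qk (siQk), collected 72 h after transfection. Qk encodes the Qki RNA-binding proteins, which are known as regulators of splicing and mRNA stability in the oligodendrocyte lineage. The knockdown used 3 different Qk siRNAs, and which library received which one is not stated in the sources used here. The replicates are described as biological, without a statement of shared dissections, so that the spread given below is that between these libraries. Polyadenylated RNA was sequenced without a record of strand, and no protein was measured.

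A synthetase activates its amino acid with ATP and transfers it to the tRNA, and the supply of charged tRNA sets what the ribosome can decode. The enzymes fall into class I and class II by the fold of the catalytic domain. In the mammalian cytosol, several of them sit in a multisynthetase complex held together by the scaffold proteins Aimp1, Aimp2 and Eef1e1, and Eprs carries the glutamyl and prolyl activities in 1 chain. Mitochondria charge their own tRNAs with separate nuclear-encoded enzymes, except that Gars and Kars each give both forms from a single gene, and that mitochondrial glutaminyl-tRNA is made by an amidotransferase in place of a synthetase. Mutations of many synthetase genes are known from neuropathies and leukodystrophies, among them DARS, which is linked to a disease of central myelin.

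The libraries held 58166490 to 141045937 tags, a tag being the counting unit of the deposited tables. Qk itself was at 209, 206 and 163 RPKM in the siNC libraries and at 51.3, 76.6 and 36.2 RPKM in the siQk libraries. The groups did not overlap, and the log2 fold change was -1.98 (SE 0.28, FDR = 0.00311, edgeR quasi-likelihood test). Calls of change required P under 0.01 together with an FDR under 0.1 (Benjamini-Hochberg, over all genes tested). By this rule 31.0% of the tested genes were called, 13.8% higher and 17.2% lower in siQk (1730 and 2149 transcripts). With library totals as the only scaling, 2989 were called higher and 1365 lower. TMM factors, which set the libraries to a common scale, ran from 0.899 to 1.07, and single-library levels below are RPKM divided by these factors unless called deposited. In bulk RNA, fewer cells of a type and less RNA per cell cannot be told apart.

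The cultures carried the markers of their label. All 5 OPC markers were present, with a summed level of 655 to 712 scaled RPKM in siNC and 804 to 936 in siQk, and 3 of the 5 were called higher. The 6 oligodendrocyte markers summed to 2390 to 5052 in siNC against 897 to 1500 in siQk, with 5 of 6 called lower. Astrocyte markers summed to 78.0 to 131 against 19.1 to 21.7, with 3 of the 4 tested called lower. Neuron markers summed to 109 to 175 against 67.1 to 103, with 0 of the 3 tested called. Most of that sum was Tubb3, at 107 to 172 against 64.2 to 99.0. Of the tested neuron markers, 2 had a negative and 1 a positive log2 fold change. Markers of microglia, with 1 of 4 at 0 in every library, reached at most 3.40, and those of fibroblasts and vessels, with 1 of 5 at 0, at most 0.242. Dividing-cell markers summed to 61.0 to 82.0 against 82.4 to 136, with 3 of 5 called higher. What part these shifts between the groups have in the synthetase values was not tested.

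Most synthetase transcripts differed little between siNC and siQk. Of the 36, 8 were called changed (22.2%, against 31.0% of all genes tested), 6 of them higher (background 13.8%) and 2 lower (background 17.2%). The log2 fold change was within 0.5 of 0 for 32 of the 36 (88.9%, against 75.9% of all tested genes), and the median of its size was 0.20 against 0.25. Their expression was higher than that of the average tested gene, with a median logCPM of 6.57 against 5.19. The scaled levels of siNC and siQk did not overlap for 19 of the 36 genes (52.8%), against 54.4% of all tested genes. Neither share of calls nor share of separated ranges thus stood above the background of this comparison.

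Among the cytosolic enzymes, 5 of 20 were called, Qars, Farsa, Vars and Gars higher and Dars lower, with a median log2 fold change of 0.05. Among the mitochondrial enzymes, 3 of 16 were called, Yars2 and Tars2 higher and Nars2 lower, with a median of 0.19. The median over all tested genes was 0.01. All fold changes are siQk over siNC. In the plot of fold changes by compartment, the intervals of 17 of the 36 enzymes leave out 0 before any adjustment (6099 of 12505 among all tested genes), and that of Lars2 is by far the widest.

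**Figure D1:**
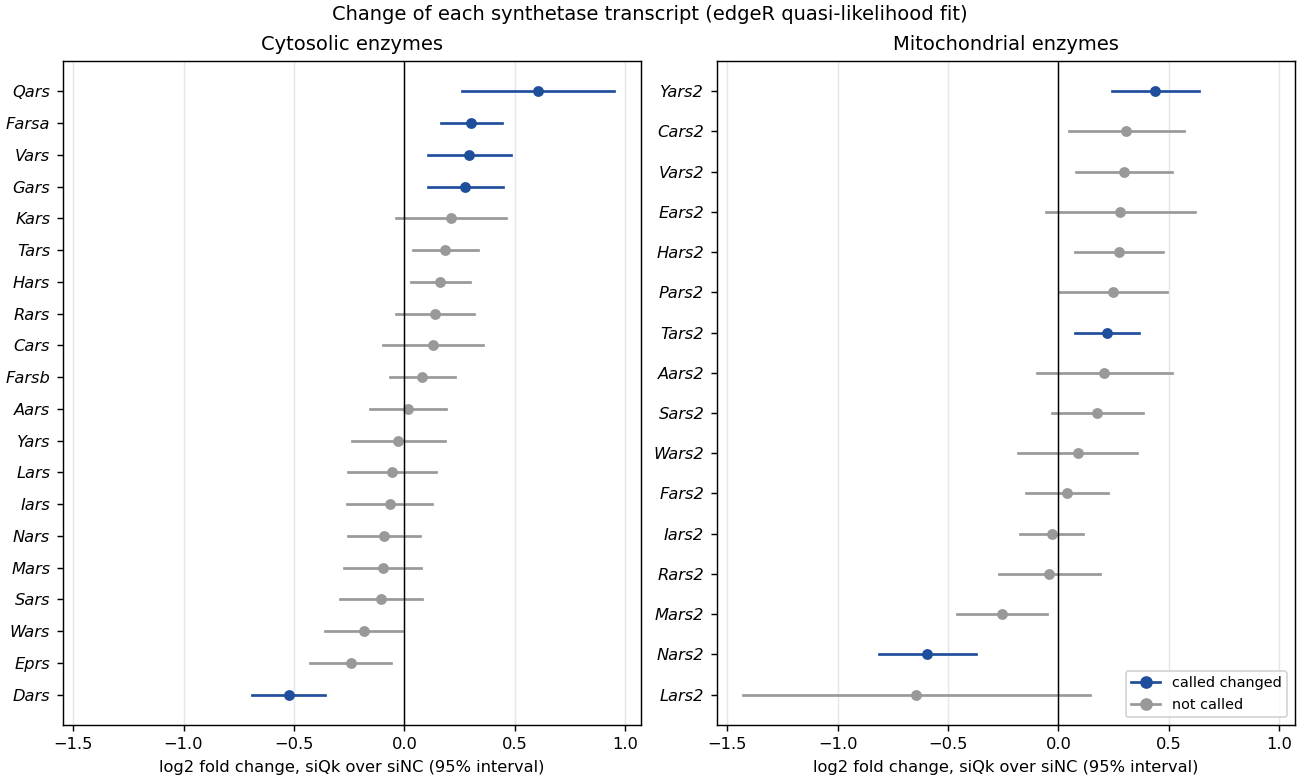
Log2 fold change of each synthetase transcript (siQk over siNC, horizontal axis) with its 95% interval from the edgeR quasi-likelihood fit, for 20 cytosolic enzymes (left) and 16 mitochondrial enzymes (right). Blue marks the 8 transcripts called changed, of which 6 lie to the right of 0 and 2, Dars and Nars2, to the left.

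The levels of the enzymes differed more between the compartments than between the groups. Cytosolic transcripts had mean levels over the 6 libraries of 18.8 (Qars) to 106 (Nars) scaled RPKM, with a median of 51.0. Mitochondrial transcripts ran from 1.79 (Pars2) to 34.8 (Rars2), with Lars2 apart at 103 and a median over all 16 of 7.59. The replicates were tight, since the SD was in the median 5.96% of the mean over the siNC libraries and 5.20% over the siQk libraries. The largest relative spread in siNC, 53.3%, was that of Lars2.

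**Figure D2:**
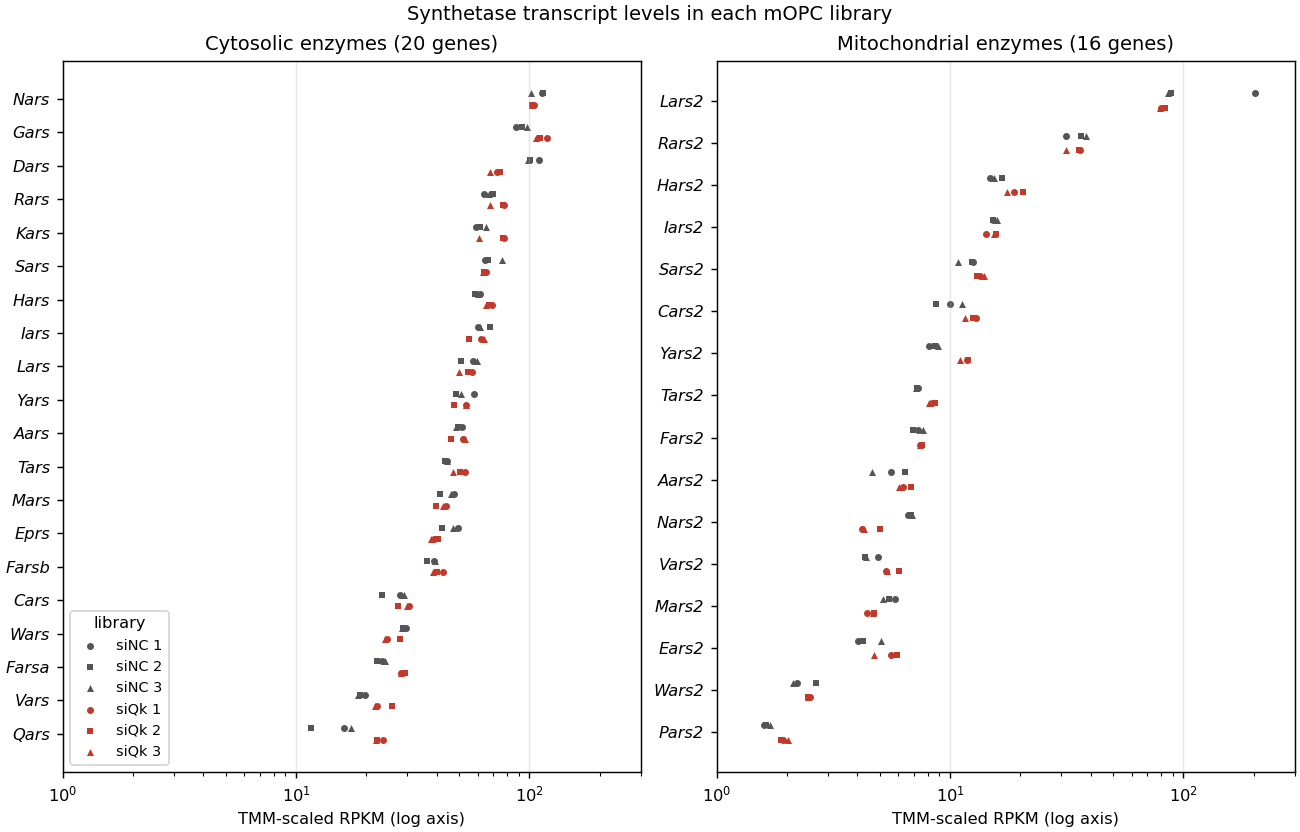
TMM-scaled RPKM (log axis) of each synthetase transcript in each of the 6 libraries, siNC in grey and siQk in red, with genes ordered by mean level. Cytosolic enzymes (left) lie between 11.5 and 119, and mitochondrial enzymes (right) between 1.59 and 38.3 except Lars2.

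Dars, the aspartyl-tRNA synthetase and a class II enzyme of the multisynthetase complex (Entrez 226414, chr1:128363707-128417416, mm10), was the only cytosolic transcript called lower. It was at 109.7, 101 and 98.9 scaled RPKM in siNC and at 72.6, 74.8 and 68.0 in siQk. Every siQk library was below every siNC library, and the gap was wider than the range within either group. On the log2 scale the change was -0.52 (SE 0.07, 95% interval -0.69 to -0.36, FDR = 0.00278), so that the level fell by 30.5%. This was the strongest case among the cytosolic enzymes by FDR.

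Qars, the glutaminyl-tRNA synthetase of the same complex (Entrez 97541, chr9:108508005-108515941), moved the other way and was the least abundant cytosolic enzyme. Its levels were 15.99, 11.5 and 17.2 scaled RPKM in siNC and 23.7, 22.3 and 22.1 in siQk. The siQk libraries lay close together and above all siNC libraries, among which the second was low. The fitted log2 fold change was 0.61 (SE 0.15, 95% interval 0.26 to 0.95, FDR = 0.0189). The call was lost when siQk library 1, 2 or 3 was left out, with log2 fold changes of 0.57, 0.62 and 0.63 and FDR = 0.0679, 0.0549 and 0.0467 (range over all alternatives 0.000933 to 0.0679).

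Farsa encodes the catalytic alpha subunit of the cytosolic phenylalanyl enzyme (Entrez 66590, chr8:84856969-84869257). It was at 23.4, 22.1 and 24.1 scaled RPKM in siNC and at 28.3, 29.4 and 28.2 in siQk, without overlap. The log2 ratio of siQk to siNC was 0.30 (SE 0.06, 95% interval 0.17 to 0.44, FDR = 0.00873). Farsb, the beta subunit of the same heterotetramer, had a log2 fold change of 0.08 (95% interval -0.07 to 0.23, FDR = 0.336) and was not called. Within libraries, the ratio of Farsa to Farsb was 0.598, 0.605 and 0.612 in siNC and 0.665, 0.730 and 0.726 in siQk. The 2 subunit transcripts of this enzyme thus stood in a higher ratio in each siQk library than in any siNC library.

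Vars, the valyl-tRNA synthetase (Entrez 22321, chr17:35000907-35016329), was at 19.8, 18.8 and 18.4 scaled RPKM in siNC and at 22.3, 25.7 and 21.8 in siQk. The groups did not overlap, and the second siQk library was the highest. The log2 fold change was 0.29 (SE 0.08, 95% interval 0.11 to 0.48, FDR = 0.0276). The call was lost without siNC library 1, 2 or 3 (0.32, 0.29 and 0.27) and without siQk library 1 or 2 (0.32 and 0.22), while the FDR over all alternatives was 0.00670 to 0.0664.

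Gars, the glycyl-tRNA synthetase, supplies both the cytosol and the mitochondria (Entrez 353172, chr6:55038001-55079504). Its transcript was at 87.9, 92.6 and 97.8 scaled RPKM in siNC and at 119, 111 and 107 in siQk. The groups did not overlap, and all siQk libraries were above the siNC ones. The log2 fold change was 0.27 (SE 0.07, 95% interval 0.11 to 0.44, FDR = 0.0243). Leaving out siNC library 1 or 2 (0.24 and 0.27) or siQk library 1, 2 or 3 (0.23, 0.29 and 0.31) ended the call, with FDR values of 0.00282 to 0.0993 over all alternatives.

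Nars, the asparaginyl enzyme and the most abundant cytosolic synthetase, was at 114, 114 and 101 scaled RPKM in siNC and at 104, 103 and 102 in siQk. The groups overlapped, and the log2 fold change was -0.09 (SE 0.07, 95% interval -0.25 to 0.07, FDR = 0.329).

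The other 14 cytosolic transcripts were not called. Positive values were found for Kars (lysyl, both compartments, 0.21), Tars (threonyl, 0.18), Hars (histidyl, 0.16), Rars (arginyl, 0.14), Cars (cysteinyl, 0.13), Farsb (0.08) and Aars (alanyl, 0.02). Negative values were found for Eprs (-0.24), Wars (tryptophanyl, -0.19), Sars (seryl, -0.11), Mars (methionyl, -0.10), Iars (isoleucyl, -0.07), Lars (leucyl, -0.06) and Yars (tyrosyl, -0.03). Of these, Eprs was called without the second siNC library (-0.31, FDR = 0.0190, against 0.0125 to 0.387 over all alternatives). Kars was called without the third siQk library (0.32, FDR = 0.0269, range 0.0269 to 0.378), and Wars without the second siQk library (-0.26, FDR = 0.0402, range 0.0402 to 0.770). With library totals as the only scaling, which moved the median of all tested genes to 0.16, the values of Iars, Lars, Mars, Nars, Sars and Yars turned positive, those of Lars and Yars also with upper quartile factors.

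Of the 8 cytosolic enzymes of the multisynthetase complex (Dars, Eprs, Iars, Kars, Lars, Mars, Qars and Rars), 1 was called higher and 1 lower, with a median of -0.06. Of the 12 free cytosolic enzymes, 3 were called higher, with a median of 0.11. The ratio of Qars to Dars within a library was 0.146, 0.114 and 0.174 in siNC and 0.326, 0.298 and 0.325 in siQk, and that of Qars to Eprs was 0.324, 0.273 and 0.364 against 0.609, 0.550 and 0.584. Both ratios were higher in every siQk library than in any siNC library. This follows from the single genes, since scaled Qars was higher and scaled Dars and Eprs were lower in every siQk library. The ratios thus add no separate result. By class, 3 of 19 class I transcripts were called, all higher (median -0.03), and of 17 class II transcripts 3 were called higher and 2 lower (median 0.18). Eprs, with its glutamyl and prolyl activities, was counted in class I alone. For all these subsets the background is 31.0% called, 13.8% higher and 17.2% lower, and with 8 to 19 genes in each no subset is read as standing apart from it.

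In the mitochondrial group, Nars2 was the only transcript called lower. It encodes the mitochondrial asparaginyl enzyme (Entrez 244141, chr7:96950839-97064758) and was at 6.60, 6.76 and 6.89 scaled RPKM in siNC and at 4.17, 4.99 and 4.27 in siQk. The siNC libraries were nearly equal, and all siQk libraries lay below them. Their log2 fold change was -0.59 (SE 0.09, 95% interval -0.81 to -0.37, FDR = 0.00442), a level that fell by 33.7%. Of its annotated exonic bases, 6.85% overlap a gene on the other strand, and reads from the 2 genes cannot be told apart there.

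Yars2, the mitochondrial tyrosyl enzyme (Entrez 70120, chr16:16302965-16309640), was at 8.09, 8.59 and 8.87 scaled RPKM in siNC and at 11.8, 11.9 and 11.01 in siQk. Again the ranges were far apart compared with the spread within a group. A log2 fold change of 0.44 was fitted (SE 0.08, 95% interval 0.24 to 0.64, FDR = 0.00865), or 35.6% above siNC.

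Tars2, the mitochondrial threonyl enzyme (Entrez 71807, chr3:95739974-95756365), was at 7.27, 7.22 and 7.14 scaled RPKM in siNC and at 8.39, 8.63 and 8.16 in siQk. The groups did not overlap, although the change was small, with a log2 fold change of 0.22 (SE 0.06, FDR = 0.0307). The call held in 5 of 15 alternatives and in none of the 6 fits that left out a library, where the value was 0.20 to 0.24. FDR values over all alternatives were 0.00375 to 0.104.

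**Figure D3:**
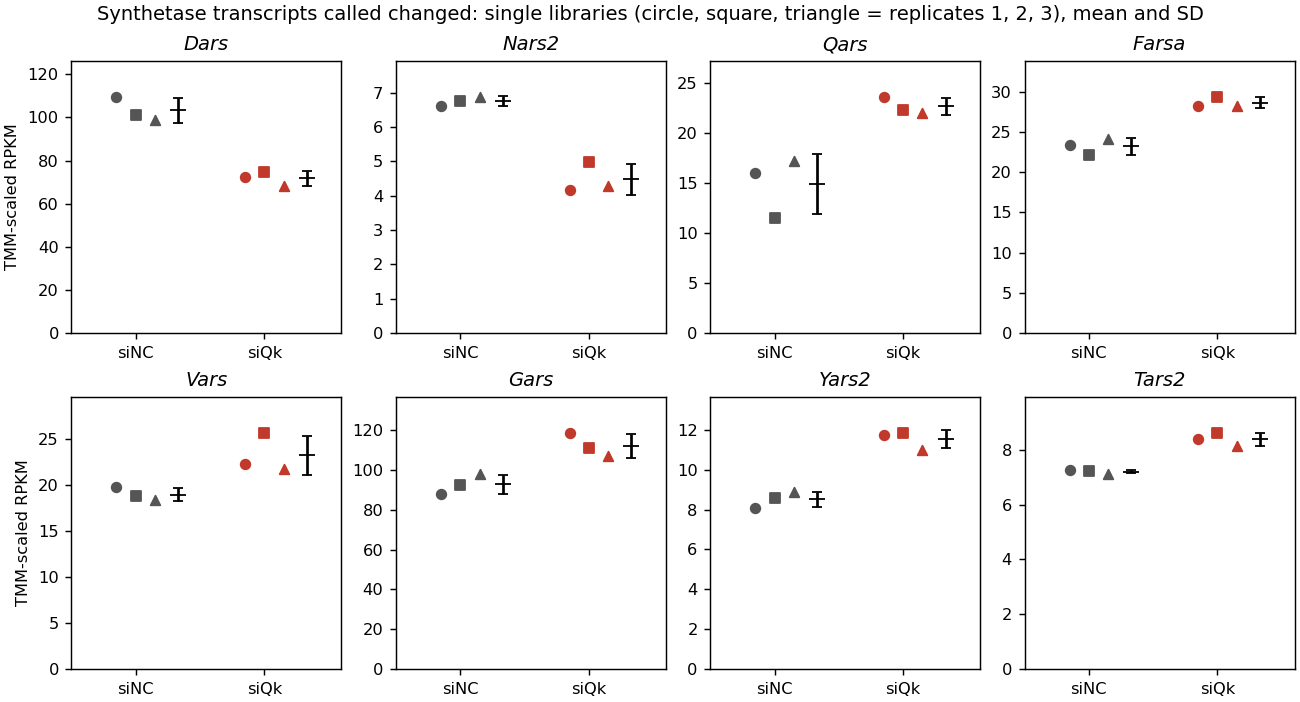
TMM-scaled RPKM of the 8 synthetase transcripts called changed, with siNC libraries in grey and siQk libraries in red (circle, square and triangle for replicates 1, 2 and 3) and the mean with SD beside each group. In every panel the groups are apart. Dars and Nars2 are lower in siQk, and the other 6 are higher.

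Lars2, the mitochondrial leucyl enzyme (Entrez 102436, chr9:123366927-123462675), had the highest level of its compartment, and its siNC mean rested on 1 library. It was at 204, 88.4 and 86.4 scaled RPKM in siNC and at 80.0, 83.2 and 79.1 in siQk. The first siNC library was far above the other 5, which lay between 79.1 and 88.4. The log2 fold change of -0.64 (SE 0.33, 95% interval -1.43 to 0.14, FDR = 0.164) was not called, and without that library it was -0.11 (FDR = 0.236, against 0.0736 to 0.296 over all alternatives). The same library held 3.11% of its tags in Rn45s, the ribosomal RNA precursor gene, while the others held 0.169% to 0.389%. The link between the 2 values was not tested.

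**Figure D4:**
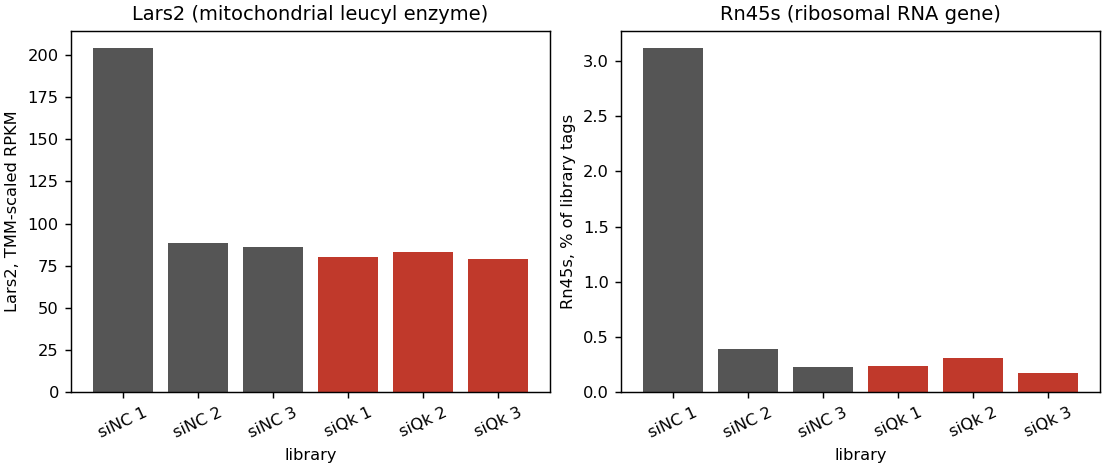
Lars2 in TMM-scaled RPKM (left) and Rn45s as percent of library tags (right) in the 6 libraries, siNC in grey and siQk in red. Both bars are tallest in the first siNC library, at 204 and 3.11%, and the other 5 libraries are at 79.1 to 88.4 and 0.169% to 0.389%.

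Pars2, the mitochondrial prolyl enzyme and the least abundant of the 36 (Entrez 230577, chr4:106651069-106655282), was at 1.59, 1.62 and 1.69 scaled RPKM in siNC and at 1.92, 1.88 and 2.01 in siQk. Its libraries did not overlap between the groups, yet the log2 fold change of 0.25 (SE 0.10, 95% interval 0.0027 to 0.49, FDR = 0.0997) missed the limit on P and it was not called.

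The remaining 11 mitochondrial transcripts were not called either. Positive values were found for Cars2 (0.31), Vars2 (0.30), Ears2 (glutamyl, 0.28), Hars2 (0.27), Aars2 (0.21), Sars2 (0.18), Wars2 (0.09) and Fars2 (0.04). Negative values were found for Mars2 (-0.25), Rars2 (-0.04) and Iars2 (-0.03). Leaving out the third siNC library made Cars2 a call (0.41, FDR = 0.0266, range 0.0221 to 0.181), and leaving out the second did so for Hars2 (0.32, FDR = 0.0349, range 0.0160 to 0.127). Iars2 and Rars2 turned positive with library totals as the only scaling and with upper quartile factors.

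Of the 8 calls, those of Dars, Farsa, Nars2 and Yars2 held in all 15 alternatives. Their log2 fold changes over these were -0.55 to -0.37 for Dars, 0.27 to 0.45 for Farsa, -0.68 to -0.44 for Nars2 and 0.40 to 0.59 for Yars2. Of the 28 transcripts not called, 18 were called in no alternative. For 1 gene with 3 libraries against 3, exact two-sided permutation gives no p under 0.1, so that the calls rest on the spread shared across genes in the edgeR fit.

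Enzymes for the same amino acid in the 2 compartments could be set side by side in 16 pairs. The cytosolic transcript was the more abundant per length in both groups in 15 pairs, the exception being Lars and Lars2. The mitochondrial transcript had the higher log2 fold change in 11 pairs and the lower in 5, with a median difference of 0.07, and the 2 changes had the same sign in 10 pairs. The Nars to Nars2 ratio was 17.2, 16.9 and 14.7 in siNC and 25.1, 20.5 and 24.0 in siQk. Tyrosyl enzymes went the other way, with a Yars to Yars2 ratio of 7.15, 5.64 and 5.76 in siNC and 4.56, 4.0 and 4.84 in siQk. Neither ratio overlapped between the groups, and these were not the only such pairs. The ratios of Rars to Rars2 and Farsa to Fars2 were also without overlap and higher in siQk. Those of Sars to Sars2, Eprs to Ears2 and Eprs to Pars2 were without overlap and lower in siQk. The ratios of the remaining pairs overlapped. Both pairs with Eprs use the same Eprs values. Among single tested genes, 54.4% had ranges apart, and no such share was taken for ratios of other gene pairs. Separated ratios are therefore not read as a trait of these pairs. The plot of ratios within libraries shows pairs on both sides of 0, with no common direction.

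**Figure D5:**
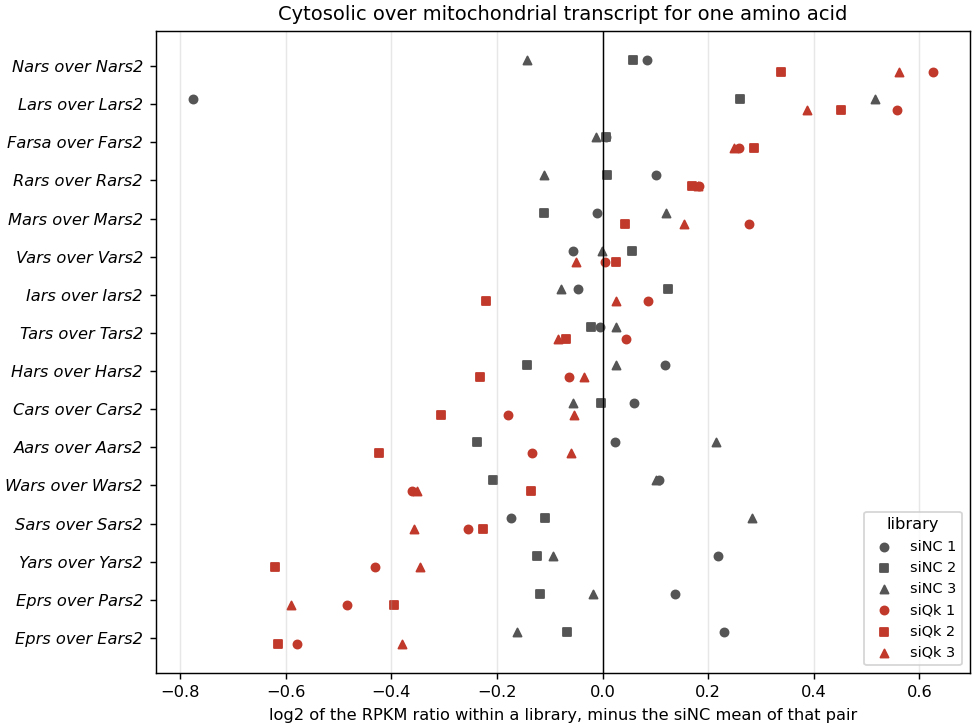
Ratio of cytosolic to mitochondrial transcript within each library, as log2 and relative to the siNC mean of the pair (horizontal axis), for 16 pairs, siNC in grey and siQk in red with 1 symbol per replicate. Nars over Nars2 lies to the right in all siQk libraries and Yars over Yars2 to the left, and the first siNC library is apart for Lars over Lars2.

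The summed deposited RPKM of the 20 cytosolic transcripts was 975.0, 1010.0 and 1067 in siNC (1017 ± 46.7, SD, n = 3) and 1174, 1152 and 1093 in siQk (1139.6 ± 42.2, n = 3). These sums did not overlap, whereas after division by the TMM factors they did, at 1072 ± 19.6 and 1081 ± 35.0. The 16 mitochondrial transcripts summed to 253 ± 46.8 deposited RPKM in siNC and 246 ± 11.5 in siQk. Without Lars2 the deposited sums were 123, 138 and 143 in siNC against 161, 169 and 152 in siQk, and the scaled ones were 142 ± 4.17 against 152 ± 6.37. The ratio of the cytosolic sum to the mitochondrial sum without Lars2 does not depend on the scaling, and it was 7.55 ± 0.31 in siNC and 7.10 ± 0.25 in siQk, with the lowest siNC and the highest siQk library both at 7.30.

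Genes that work with the synthetases were called in 1 of 3, 2 of 7 and 1 of 10 cases by list, against 31.0% of all tested genes. Of the 3 scaffold proteins of the complex, Eef1e1 was called lower, with scaled RPKM of 37.8 ± 4.61 (SD, n = 3) in siNC and 26.1 ± 3.38 (n = 3) in siQk and a log2 fold change of -0.53 (FDR = 0.0194). Aimp1 (0.03) and Aimp2 (0.24, FDR = 0.0559) were not called. Of 7 synthetase-related enzymes, Dtd1, a deacylase that removes D-amino acids from tRNA, was called higher (0.36, FDR = 0.00780) and Sepsecs, which makes selenocysteyl-tRNA, lower (-0.37, FDR = 0.00729). The list's median was -0.03. Of 10 genes of tRNA charging and translation in mitochondria, Tufm was the only call (0.40, FDR = 0.0165), and the median was 0.11. Tufm is the mitochondrial elongation factor that delivers charged tRNA to the ribosome.

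Genes that mature tRNA and genes that transcribe it were counted in the same way. Of 20 tested tRNA maturation genes, 5 were called higher (background 13.8%) and 1 lower (background 17.2%), with a median of 0.12. The largest changes were in Tsen54 (0.73, FDR = 0.00332) and Tsen15 (0.57, FDR = 0.00565), subunits of the tRNA splicing endonuclease, and in Pop1 (0.46, FDR = 0.0276), a subunit of RNase P. The lower one was Xpot, the tRNA exporter (-0.44, FDR = 0.00764). Of 19 genes of RNA polymerase III and its factors, 3 were called, all higher (15.8%), with a median of -0.02. These were the polymerase subunits Polr3gl (0.36) and Polr3c (0.33) and the TFIIIC subunit Gtf3c3 (0.23).

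The amino acid response is a program by which cells short of charged tRNA, sensed by the kinase Gcn2 (Eif2ak4), raise Atf4 and its targets, synthetase genes among them. Of 25 tested genes of this program, 10 were called (40.0%, against 31.0%), 5 in each direction, with a median of 0.11. The lower ones were Trib3 (-1.22, FDR = 0.00278), a pseudokinase, the transcription factors Atf3 (-0.69) and Ddit3 (-0.38), and the transporters Slc7a11 (-0.50) and Slc38a2 (-0.44). The higher ones were Cth (1.05, FDR = 0.0150), an enzyme of cysteine synthesis, the transporters Slc1a5 (0.96, FDR = 0.0163) and Slc7a5 (0.45), Eif2ak4 itself (0.60) and Aldh18a1 (0.43), an enzyme of proline synthesis. Atf4 RNA was at 93.8 ± 6.56 scaled RPKM in siNC and 91.4 ± 5.09 in siQk (SD, n = 3 each), with a log2 fold change of -0.04 (FDR = 0.714). Atf4 protein was not measured, so this value does not give the activity of the program.

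Promoters from RefSeq (GRCm38.p6, the 250 bases before the start) were analysed for 27 of the 36 genes and searched on both strands for TGATGNAA, the core of the C/EBP-ATF response element of amino acid response genes. It was present for 3 of 27 genes (11.1%), Gars and Tars among them, against 230 of 9975 tested genes with a window (2.31%) and 3.91% of all genes with one. In both Gars and Tars it lies on the strand opposite to the gene, so that the capitals below, read along the gene, are its reverse complement. Of the 3, Gars was called higher (0.27) and the other two were not called, with log2 fold changes of 0.02 and, for Tars, 0.18. A match is a description of the letters and not of binding. The motif was chosen because it is known from several synthetase promoters. Its share, which rests on 3 genes, is therefore not read as a result about the synthetases. The stretches around these matches are shown because the letters are those of the response program described above.
Gars, chr6:55037960-55037989, + strand: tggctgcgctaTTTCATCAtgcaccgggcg
Tars, chr15:11399659-11399684, - strand: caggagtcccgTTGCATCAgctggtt

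Qki proteins are known to bind ACUAAY in RNA, so ACTAAC and ACTAAT were searched on the sense strand in the longest GENCODE M21 3′UTR of each gene (mm10). Transcripts annotated for nonsense-mediated decay, which have an early stop codon, were not left out. For some genes the stretch searched can therefore hold bases that are coding in other transcripts, and the shares and rates below include these. At least 1 match was found in 11 of the 36 genes (30.6%), against 4382 of 11846 tested genes (37.0%) and 26.3% of the tested genes whose 3′UTR length was within the interquartile range of the synthetases. Per kilobase there were 0.355 matches in the synthetases and 0.329 in all tested genes. Of the 8 called transcripts, Dars and Nars2 held 1 match each and Yars2 held 2, while none was found for Farsa, Gars, Qars, Tars2 and Vars. Dars and Nars2 are the transcripts called lower and Yars2 is one called higher. Matches were also found in transcripts that were not called, on both sides of 0. Among them were Mars2 with 5 (-0.25), Wars with 2 (-0.19), Aars with 2 (0.02) and Tars with 1 (0.18). The matches of Dars, Nars2 and Yars2 are shown in capitals within the surrounding 30 bases.
Dars, chr1:128363905-128363934, - strand: ggtggccaccatACTAATattctaaatttt
Nars2, chr7:97063281-97063310, + strand: gagtctaaattgACTAATgaagtggctatt
Yars2 (first), chr16:16308181-16308210, + strand: acttcactgataACTAATttgctgataact
Yars2 (second), chr16:16308600-16308629, + strand: cctctctttaacACTAATgtttgtttagca

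Reads could be shared where exons of different genes overlap, since the counting kept no strand. Exons were compared in GENCODE M21, without transcripts of coding genes annotated as retained intron, nonsense-mediated decay or processed transcript. Among these exons, 24 of the 36 genes have no base in common with another gene, and 12 do. The largest shares were 32.2% for Iars2, with Rab3gap2 the main partner, 20.7% for Aars, with Exosc6, and 10.8% for Farsb, with Sgpp2. Hars and Hars2 lie head to head and overlap each other over 9.80% and 5.85% of their exonic bases. Of the called transcripts, Nars2 alone had an overlap among the exons compared. These exons can differ from those behind the deposited counts. For Farsa, 1826 exonic bases were compared, while its deposited exon length was 4303, so that overlap in the rest was not examined.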

How the data were processed

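RNA of 6 mOPC libraries was measured. Reads were paired-end, and the authors used OLego for alignment (mm10) and Quantas for counting, whose versions are not given in the sources used here. Per gene they deposited an estimated count of tags, the exon length and the RPKM. The sources do not say if tags are reads or pairs. Here the estimated counts were rounded, and genes with an average logCPM over 0 were tested with edgeR 4.0.16 (limma 3.58.1, R 4.3.3; quasi-likelihood test, TMM factors, group as the only term). Adjusted p-values (FDR) are over all genes tested. The fitting step was also run on simulated data with the same dispersion for every gene and a small share of changed genes. That setting differs from these data, so the run is a check of the step and not of the calls. Columns of other series were not present. Replicates differed by more than sampling noise in all 6 within-group pairs. The members and gene lists were chosen with earlier results of these data known. Genes given in full were called and among the 6 largest changes of their compartment, or highest or lowest in it. Tars2, Rn45s and the smaller called list members were added after values were seen. Alternatives were DESeq2 1.42.0, the likelihood ratio test, other scalings and filters, a replicate term, an FDR of 0.05, thinning to the smallest library and leaving out each library. Splicing was not analysed here. Some items are not reported here.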

Additional observations from a re-analysis of the deposited data

How the results depend on the processing

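Of 540 values of single synthetases under 15 alternatives, 473 kept their direction and their side of the threshold, 25 lost a call, 20 gained one and 22 changed sign. With library size only, 2989 transcripts were called higher and 1365 lower (main 1730 and 2149, 55.4% lower), 7 mitochondrial synthetases were called, 6 of them higher, and the medians were 0.20 (cytosolic) and 0.34 (mitochondrial), with a median over all genes of 0.16. The values of Iars (0.082), Lars (0.095), Mars (0.054), Nars (0.062), Sars (0.041), Yars (0.13), Iars2 (0.12) and Rars2 (0.10) turned positive. Relative to the median of all genes the shifts were 0.04 and 0.18 in both scalings. Upper quartile factors gave a cytosolic median of 0.11, 5 mitochondrial calls, 4 of them higher, and positive values for Lars (0.0045), Yars (0.033), Iars2 (0.029) and Rars2 (0.018). DESeq2 called 2 cytosolic transcripts lower, and 6 mitochondrial ones, 4 higher and 2 lower. An FDR below 0.05 with no limit on P gave 2 cytosolic transcripts lower and 5 mitochondrial calls, 4 higher. The likelihood ratio test, relative log expression factors and thinning each left 1 mitochondrial transcript higher, and thinning made Fars2 -0.011. The share of all tested genes called moved as well, from 31.0% in the main fit. It was 34.8% with library size only, 32.1% with upper quartile factors and 39.1% with DESeq2. For the likelihood ratio test, relative log expression factors and thinning it was 34.4%, 30.9% and 30.4%. An FDR below 0.05 with no limit on P called 4616 genes. Summed RPKM divided by the TMM factors was 1072 and 1081 for the cytosolic enzymes in siNC and siQk and 233 for the mitochondrial ones in siQk.

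Leaving out single libraries gave 2478 to 3704 calls (fewest without the first siQk library), 1008 to 1610 higher and 1470 to 2094 lower. It gave 2 to 4 cytosolic calls, 1 to 3 higher and 1 to 2 lower, and 2 to 3 mitochondrial calls, 1 to 2 higher. The medians were 0.02 to 0.08 (cytosolic) and 0.10 (without the third siNC library) to 0.21 (mitochondrial). Single values that changed sign were Aars (-0.021 to 0.076), Yars (-0.083 to 0.050), Fars2 (-0.00026 to 0.075), Iars2 (-0.059 to 0.010) and Rars2 (-0.12 to 0.022). The cause was not tested, although fewer libraries enter such fits.

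Same-numbered libraries did not deviate together (correlations -0.05, -0.15 and -0.34), so that they share only a number. With the replicate number as a block, 5 of the 36 were called, all 5 among the 8 above: 3 cytosolic transcripts, 2 of them higher, and 2 mitochondrial ones, 1 of them higher. Of all tested genes, 22.4% were called in that fit. The calls it ended were those of Gars (FDR = 0.0825), Vars (0.0610) and Tars2 (0.0927).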
